A study of Sus scrofa with 16 samples.

Results

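The genes described here are junction proteins and transporters of the blood-brain barrier, in the hippocampus of preterm pigs with or without necrotizing enterocolitis (NEC). The 9 named genes were CLDN5, OCLN, TJP1, CDH5, PECAM1, SLC2A1, MFSD2A, ABCB1 and LSR, and each was looked up by its gene symbol among the 21956 gene IDs of the expression table. Values were found for 5 of the 9, namely TJP1, OCLN, LSR, PECAM1 and MFSD2A. The IDs that the name table gives for CLDN5, CDH5 and SLC2A1 had no match and ABCB1 was paired with no ID, so these 4 genes are not analysed here.

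RNA was sequenced from the whole frozen left hippocampus of 16 caesarean-delivered preterm pigs, crossbreds of Danish Landrace, Large White and Duroc. All groups received parenteral nutrition and rising amounts of human donor milk of several types, on which NEC arose spontaneously, and all were killed at about a week of age. The No NEC group held 5 pigs without macroscopic gut lesions, the Co-NEC group 5 pigs with severe lesions in the colon alone, and the Si-NEC group 6 pigs whose small intestine was severely affected, whether or not the colon was too. Of these pigs, 2, 2 and 3 were female, in the same order of groups. The litter and the type of milk of each pig are not in the labels, and litter, milk and the order in which lesions arose cannot be told apart from the group here. Comparing the groups asks whether the transcript levels of barrier genes differ with the site of the gut lesions.

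The blood-brain barrier is formed by the endothelial cells of brain vessels, which are sealed by tight junctions and wrapped by pericytes and astrocyte end-feet. Because little passes between these cells, nutrients enter the brain through transporters in their membranes, and transport in vesicles is kept low. Claudins, occludin and angulins make up the strands of the junctions, zonula occludens proteins tie them to the cytoskeleton, and transporters such as MFSD2A carry lipids across the cell.

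Values were in FPKM, the fragments of a transcript scaled by its length and by all mapped fragments of the library. Depth per pig is unknown, and the sums of FPKM ranged from 544629 to 864931. Pigs 230-15 (No NEC) and 223-15 (Si-NEC) stood apart, with the highest sums and a median correlation with the other pigs of 0.902 and 0.933, against 0.949 to 0.960 in the other 14 pigs. Brain endothelium was represented in the table by 14 of 18 listed endothelial markers, of which 11 passed the minimum of 0.5 FPKM, while S1PR1 was listed at 0 in every pig.

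Over the 16 pigs, TJP1 had the highest level of the 5 genes at 16.9 FPKM, followed by MFSD2A at 13.7 FPKM, PECAM1 at 8.41 FPKM and OCLN at 4.45 FPKM. LSR came as 2 distinct entries under 1 gene ID, with means of 3.29 FPKM and 1.17 FPKM, which are called LSR (1) and LSR (2). What separates these entries is not stated in the sources used here, so the level of LSR as a whole is uncertain. TJP1 stood above 66.2% of all entries tested and LSR (2) above 8.24%. TJP1 varied least between pigs, with a coefficient of variation of 8.19%, against 23.5% for MFSD2A and 27.9% to 32.1% for the others. The range over the pigs of each entry overlapped that of its neighbour in this order.

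None of the 5 genes passed an adjusted p of 0.2 with limma in any comparison. The study used the same cutoff with another test, Cuffdiff. That test called more genes in each comparison than limma did here. With limma and Benjamini-Hochberg adjustment over 13590 entries, 0 of the 6 entries passed in each comparison, where the share of all entries that passed was 0.00736% (Si-NEC against No NEC), 0.00736% (Co-NEC against No NEC) and 0.0147% (between the NEC groups). At an unadjusted p under 0.05, 1 entry (MFSD2A) passed for Si-NEC against No NEC, where 2.61% of all entries did. For Co-NEC against No NEC the number was 0, where 3.44% of all entries did, and for Si-NEC against Co-NEC it was 1 (PECAM1), where 5.64% did. The exact permutation test gave an unadjusted p under 0.05 for the same genes in the same comparisons and for no other entry. The ranges of the groups overlapped for each of the 6 entries in all 3 comparisons, while 0.155%, 0.464% and 0.545% of all entries had groups that did not overlap, in the order of comparisons above. Both comparisons with No NEC use the same 5 pigs and are not independent.

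**Figure D1:**
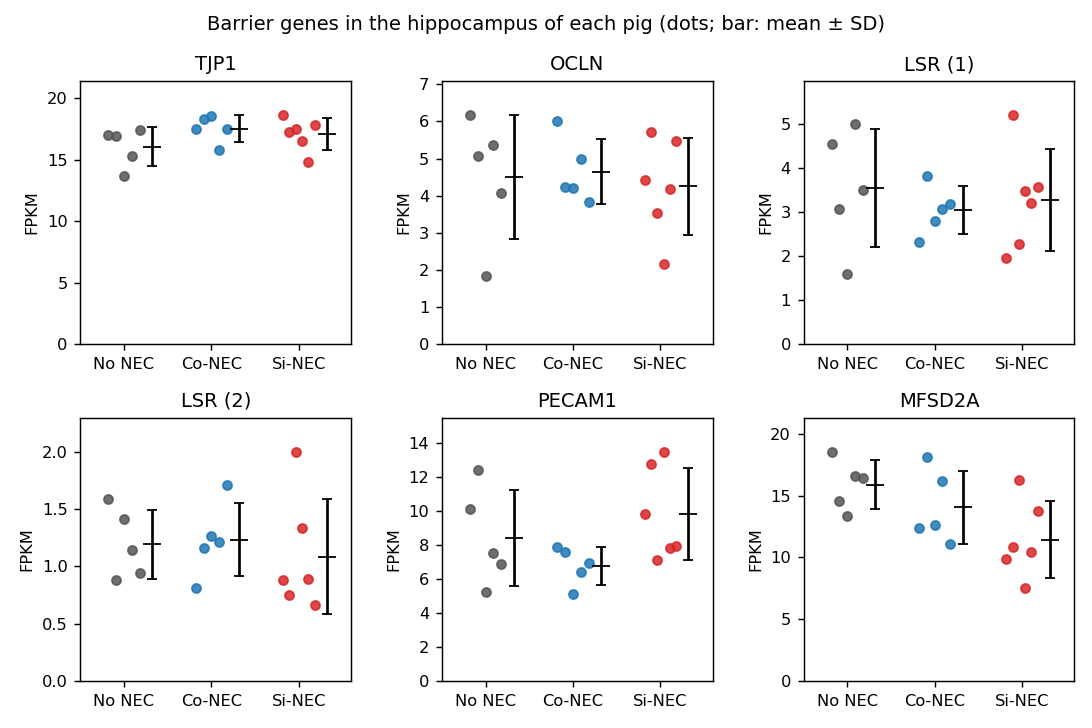
FPKM (vertical axes) of the 6 barrier gene entries in each pig, with No NEC, Co-NEC and Si-NEC along the horizontal axes; dots are pigs and bars the mean ± SD. TJP1 lies between 13.7 and 18.6 FPKM in all pigs, and 4 of the 6 Si-NEC pigs lie below every No NEC pig for MFSD2A.

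TJP1 (ENSSSCG00000004854) encodes zonula occludens 1, the scaffold that links tight junction strands to actin, and is expressed in many cell types besides endothelium. In No NEC pigs it was at 13.7, 15.3, 16.9, 17.01 and 17.4 FPKM. In Co-NEC pigs it was at 15.8, 17.5, 17.5, 18.3 and 18.6 FPKM. The Si-NEC pigs ranged from 14.8 to 18.6 FPKM with a median of 17.4 FPKM. The lowest pig was 230-15, and 4 of 5 Co-NEC pigs and 3 of 6 Si-NEC pigs lay above all No NEC pigs. Group means ± SD were 16.1 ± 1.56 FPKM in No NEC (n = 5), 17.5 ± 1.08 FPKM in Co-NEC (n = 5) and 17.1 ± 1.31 FPKM in Si-NEC (n = 6). These differences were within the spread between pigs. The log2 fold change was 0.13 for Co-NEC against No NEC (95% interval -0.09 to 0.34, exact permutation p = 0.119) and 0.09 for Si-NEC against No NEC (-0.13 to 0.31, exact permutation p = 0.271). Without pig 230-15 these were 0.07 and 0.03.

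OCLN (ENSSSCG00000021514) encodes occludin, a membrane protein of tight junction strands. No NEC pigs were at 1.84, 4.08, 5.07, 5.37 and 6.16 FPKM, and pig 230-15 was again the lowest. Co-NEC pigs were at 3.82, 4.22, 4.22, 4.98 and 6.01 FPKM. Si-NEC pigs ranged from 2.15 to 5.72 FPKM with a median of 4.30 FPKM. The No NEC group spanned both other groups, with the lowest and the highest pig of all 16. Means ± SD were 4.51 ± 1.66 FPKM in No NEC (n = 5), 4.65 ± 0.870 FPKM in Co-NEC (n = 5) and 4.25 ± 1.32 FPKM in Si-NEC (n = 6). The intervals of OCLN were wide, with a log2 fold change of -0.04 for Si-NEC against No NEC (95% interval -0.67 to 0.59) and 0.11 for Co-NEC against No NEC (-0.47 to 0.69). Exact permutation p-values were 0.885 and 0.817. Without pig 230-15 the log2 fold changes were -0.30 and -0.14, so the sign of the second rests on that pig.

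LSR (ENSSSCG00000002884) encodes angulin 1, which gathers junction proteins at points where 3 endothelial cells meet. LSR (1) was at 1.59, 3.08, 3.52, 4.56 and 5.01 FPKM in No NEC pigs and at 2.33, 2.80, 3.08, 3.20 and 3.82 FPKM in Co-NEC pigs. In Si-NEC pigs it ranged from 1.95 to 5.21 FPKM with a median of 3.34 FPKM. The Co-NEC values lay inside the range of both other groups. LSR (2) was at 0.884, 0.946, 1.14, 1.41 and 1.59 FPKM in No NEC and at 0.813, 1.16, 1.21, 1.27 and 1.71 FPKM in Co-NEC. In Si-NEC it ranged from 0.666 to 1.997 FPKM with a median of 0.885 FPKM. The Si-NEC pigs thus held the lowest and the highest value of LSR (2). The log2 fold changes for Si-NEC against No NEC were -0.08 (95% interval -0.68 to 0.52) and -0.13 (-0.59 to 0.33) for LSR (1) and LSR (2), with exact permutation p-values of 0.801 and 0.539. For Co-NEC against No NEC they were -0.13 (-0.67 to 0.41) and 0.03 (-0.35 to 0.41). Without pig 230-15, the lowest for LSR (1), LSR (1) was at -0.30 in Si-NEC and -0.35 in Co-NEC against No NEC (unadjusted limma p of 0.224 and 0.0600), and without pig 253-15, the highest of that group, at 0.0514 and -0.0014. Single No NEC pigs thus set the size of both values and the sign of the first. The intervals leave differences of either sign. Between the NEC groups, the junction genes were as close, with log2 fold changes (Si-NEC against Co-NEC) of -0.04 for TJP1, -0.16 for OCLN, 0.05 for LSR (1) and -0.16 for LSR (2). The exact permutation p-values were 0.567, 0.550, 0.812 and 0.468.

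PECAM1 (ENSSSCG00000017277) encodes an adhesion molecule at the contacts between endothelial cells, found also on platelets and leukocytes. No NEC pigs were at 5.22, 6.84, 7.50, 10.1 and 12.4 FPKM. Co-NEC pigs were at 5.08, 6.37, 6.91, 7.54 and 7.84 FPKM. Si-NEC pigs were at 7.09, 7.80, 7.91, 9.79, 12.7 and 13.4 FPKM. Between the NEC groups, 4 of 6 Si-NEC pigs lay above all Co-NEC pigs and 3 of 5 Co-NEC pigs lay below all Si-NEC pigs, while No NEC covered nearly the whole range. Means ± SD were 8.41 ± 2.83 FPKM in No NEC (n = 5), 6.75 ± 1.095 FPKM in Co-NEC (n = 5) and 9.79 ± 2.71 FPKM in Si-NEC (n = 6).

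The PECAM1 difference between the NEC groups did not pass the correction over all entries. Its log2 fold change for Si-NEC against Co-NEC was 0.48 (95% interval 0.09 to 0.87, SE 0.18), with an unadjusted limma p of 0.0200 and an adjusted p of 0.858. The exact permutation p was 0.0368, from 17 of 462 splits, where the smallest possible p was 0.00216. By p, PECAM1 ranked 312 of 13590 entries. Against No NEC the values were 0.23 for Si-NEC (-0.28 to 0.73) and -0.25 for Co-NEC (-0.72 to 0.22). Without pig 230-15, the lowest No NEC pig, these were 0.08 and -0.40. The mean log2 difference between Si-NEC and Co-NEC was 0.79 among females and 0.17 among males. The interaction with sex had an unadjusted p of 0.0395 and an adjusted p of 0.484 in limma, and was the 1 of 18 such interactions of the 6 entries with an unadjusted p under 0.05. Among pigs whose number ends in 14 it was 0.24 and among those ending in 15 it was 0.58.

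MFSD2A (ENSSSCG00000003669) encodes the transporter that brings the omega-3 fatty acid DHA into the brain as lysophospholipid and keeps vesicle transport low in brain endothelium. No NEC pigs were at 13.3, 14.6, 16.5, 16.6 and 18.5 FPKM. Co-NEC pigs were at 11.1, 12.4, 12.6, 16.2 and 18.2 FPKM. Si-NEC pigs were at 7.54, 9.87, 10.5, 10.8, 13.7 and 16.3 FPKM. Against No NEC, 4 of 6 Si-NEC pigs lay below every No NEC pig and 3 of 5 No NEC pigs lay above every Si-NEC pig, with Si-NEC pigs 226-15 and 547-14 inside the No NEC range. Means ± SD were 15.9 ± 2.01 FPKM in No NEC (n = 5), 14.1 ± 2.95 FPKM in Co-NEC (n = 5) and 11.4 ± 3.08 FPKM in Si-NEC (n = 6). The Si-NEC mean was 0.720 of the No NEC mean.

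For MFSD2A too, the difference did not pass the correction over all entries. The log2 fold change for Si-NEC against No NEC was -0.49 (95% interval -0.87 to -0.10, SE 0.18), with an unadjusted limma p of 0.0169 and an adjusted p of 1. The exact permutation p was 0.0303, from 14 of 462 splits. MFSD2A ranked 110 of 13590 entries by p in this comparison. For Co-NEC against No NEC the log2 fold change was -0.18 (-0.51 to 0.14, exact permutation p = 0.262), and for Si-NEC against Co-NEC -0.30 (-0.71 to 0.10, exact permutation p = 0.160). The sign for Si-NEC against No NEC was shared by both kinds of pig number, at -0.41 (ending in 14) and -0.51 (ending in 15), and by females at -0.71 and males at -0.26. Sex and the groups' difference showed no interaction past the threshold (limma adjusted p = 0.490). Without pigs 223-15 and 230-15 the value was -0.51.

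**Figure D2:**
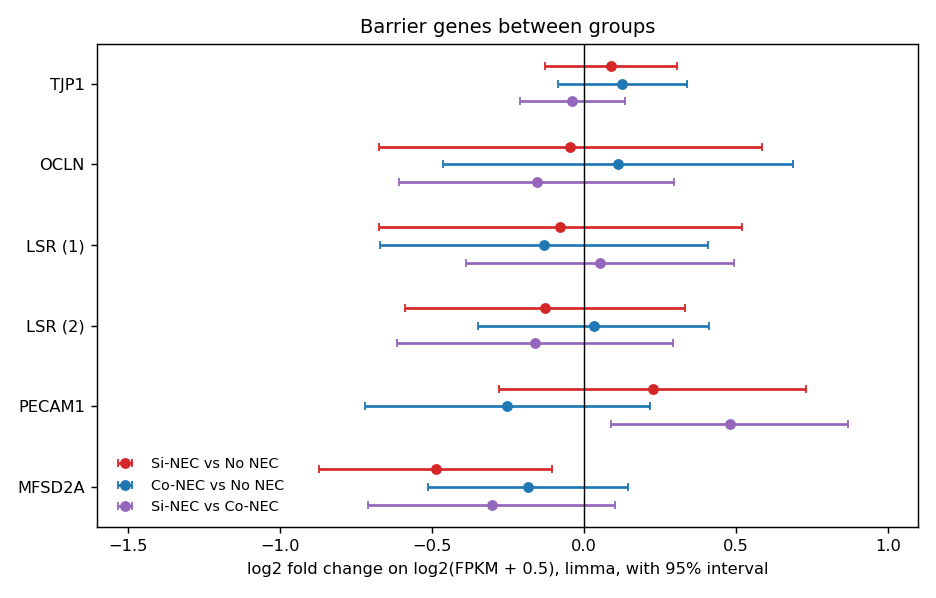
The log2 fold change of each barrier gene entry (horizontal axis, on log2(FPKM + 0.5)), from limma, with its 95% interval, for the 3 comparisons in separate colours. The intervals of MFSD2A for Si-NEC against No NEC (-0.87 to -0.10) and of PECAM1 for Si-NEC against Co-NEC (0.09 to 0.87) leave out 0, both before correction.

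In whole hippocampus, fewer cells of a type and less RNA per cell cannot be told apart, so the levels were set beside those of endothelial markers in the same pigs. The 14 markers with values, the untested ones included, summed to 85.4 to 96.9 FPKM in No NEC. Their sums were 72.0 to 88.1 FPKM in Co-NEC and 85.8 to 104.6 FPKM in Si-NEC. Between Si-NEC and Co-NEC the mean log2 level of the 11 tested markers differed by 0.25, with Si-NEC the higher (exact permutation p = 0.0303). Against No NEC it differed by 0.14 in Si-NEC (exact permutation p = 0.418) and by -0.11 in Co-NEC (exact permutation p = 0.460). The markers were thus higher in the comparison in which PECAM1 had its largest difference, and their part in that difference was not tested beyond the values given here. For Si-NEC against No NEC their sign was opposite to that of MFSD2A. Pig 230-15 had the lowest mean log2 marker level, at 2.12, against 2.66 to 2.87 in the other No NEC pigs. Those other pigs lay inside the Si-NEC range of 2.58 to 3.05, and the difference was not computed without pig 230-15.

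PECAM1 followed the endothelial markers from pig to pig and MFSD2A did not. Of 60 correlations between the 6 entries and 10 marker lists over 16 pigs, PECAM1 with the endothelial markers was the strongest (Pearson r = 0.849, permutation p = 2e-05, adjusted p = 0.0012; Spearman rho = 0.744, permutation p = 0.00144, adjusted p = 0.0432). It was 0.801 with the 2 pigs of most extreme marker level left out and 0.803 on deviations from the group means. PECAM1 also correlated with the pericyte markers (r = 0.820, permutation p = 9e-05, adjusted p = 0.0027; rho = 0.676, permutation p = 0.00525, adjusted p = 0.0630), with r = 0.707 without the 2 farthest pigs. MFSD2A had r = -0.178 with the endothelial markers (permutation p = 0.509, adjusted p = 0.800; rho = 0.0118, permutation p = 0.969, adjusted p = 0.986). Without the 2 farthest pigs it was -0.129.

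Among the junction genes, LSR (1) correlated with the endothelial markers (r = 0.732, permutation p = 0.00128, adjusted p = 0.0256; rho = 0.685, permutation p = 0.00404, adjusted p = 0.0606). That r was 0.465 without pigs 230-15 and 224-15, which are the 2 farthest. LSR (2) had r = -0.295 with the same markers (permutation p = 0.269, adjusted p = 0.536; rho = -0.315, permutation p = 0.233, adjusted p = 0.560). OCLN was closest to the astrocyte markers (r = 0.693, permutation p = 0.0041, adjusted p = 0.0615; rho = 0.776, permutation p = 0.00068, adjusted p = 0.0408), with r = 0.664 without the 2 farthest pigs. TJP1 with the same astrocyte markers had r = 0.661 (permutation p = 0.00819, adjusted p = 0.0982; rho = 0.382, permutation p = 0.143, adjusted p = 0.483), which was 0.0456 without pigs 230-15 and 223-15 and so rested on them. The 5 genes therefore did not follow a single cell type's markers.

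**Figure D3:**
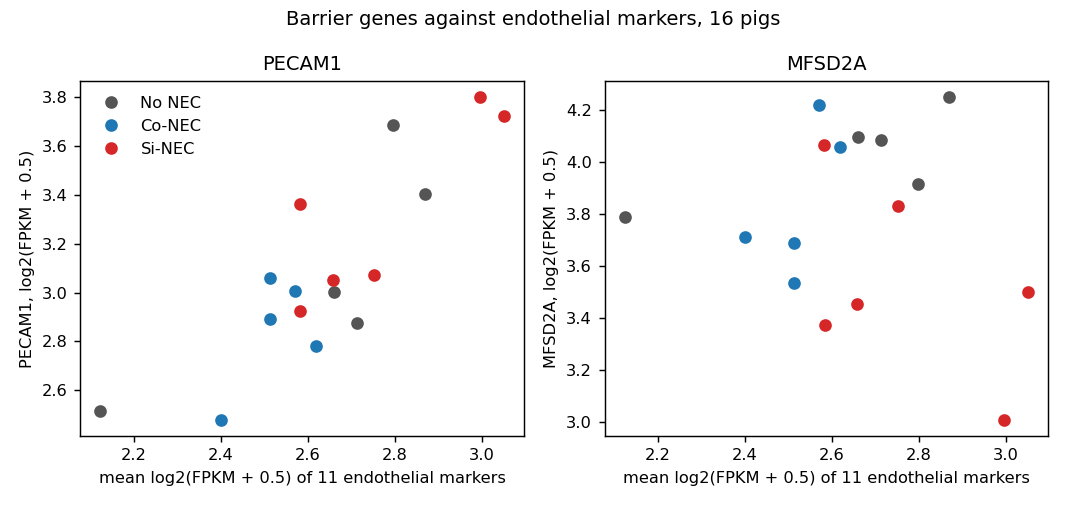
Level of PECAM1 (left) and MFSD2A (right) as log2(FPKM + 0.5) against the mean log2(FPKM + 0.5) of 11 endothelial markers, 1 dot a pig, coloured by group. Pigs with higher markers have higher PECAM1 (r = 0.849), which is not seen for MFSD2A (r = -0.178).

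Each gene was then expressed relative to the endothelial markers of the same pig, a measure chosen after the data were seen. On it the MFSD2A difference for Si-NEC against No NEC was -0.63 on the log2 scale (exact permutation p = 0.0346), and 5 of 6 Si-NEC pigs lay below all No NEC pigs. For Si-NEC against Co-NEC it was -0.55 (exact permutation p = 0.0563), and for Co-NEC against No NEC -0.08 (exact permutation p = 0.556). PECAM1 differed by 0.23 between Si-NEC and Co-NEC on this measure (exact permutation p = 0.0996), against 0.48 without it. Between the same groups OCLN and TJP1 differed by -0.40 and -0.28 (exact permutation p = 0.0996 and 0.0563). Each of these values is the gene's own difference less that of the markers given above, so it adds no independent measurement. The low marker level of pig 230-15 raises its values on this measure, which was not repeated without that pig. Without pig 230-15 the unscaled MFSD2A log2 fold change for Si-NEC against No NEC was -0.55.

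The 5 genes showed no correlation with each other past correction. Of the 15 pairs of entries over 16 pigs, the highest Pearson r was that of OCLN with LSR (1) (r = 0.509, permutation p = 0.0424, adjusted p = 0.379; rho = 0.450, permutation p = 0.0811, adjusted p = 0.366). It was 0.445 without the 2 pigs most extreme in OCLN, and 0.282 without pigs 223-15 and 230-15. The rho farthest from 0 was that of OCLN with LSR (2) (rho = -0.571, permutation p = 0.0236, adjusted p = 0.353; r = -0.448, permutation p = 0.0817, adjusted p = 0.379), with r = -0.472 without the 2 most extreme pigs. PECAM1 and MFSD2A had r = -0.374 (permutation p = 0.151, adjusted p = 0.379; rho = -0.291, permutation p = 0.276, adjusted p = 0.567), and leaving out the 2 pigs with the most extreme PECAM1 gave r = 0.0412, so the sign rested on them.

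The genes whose levels were most like each barrier gene were looked up among 8458 genes, by Pearson r over the 16 pigs, as a description. These r share the library of each pig and were the highest of many. For MFSD2A they were SLC22A6, an organic anion transporter (r = 0.953), FLVCR2, a choline transporter of brain endothelium (r = 0.861), and PER2, a gene of the circadian clock (r = 0.811). SLC22A6 was at 7.95 ± 1.95 FPKM in No NEC (n = 5), 7.21 ± 1.60 FPKM in Co-NEC (n = 5) and 5.18 ± 2.01 FPKM in Si-NEC (n = 6). FLVCR2 was at 1.91 ± 0.727, 1.47 ± 0.747 and 0.962 ± 0.438 FPKM in the same order, and PER2 at 3.29 ± 0.407, 3.24 ± 0.512 and 2.68 ± 0.612 FPKM. Pig 246-15 (Si-NEC) had the lowest value of all 16 pigs for each of these genes and for MFSD2A.

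**Figure D4:**
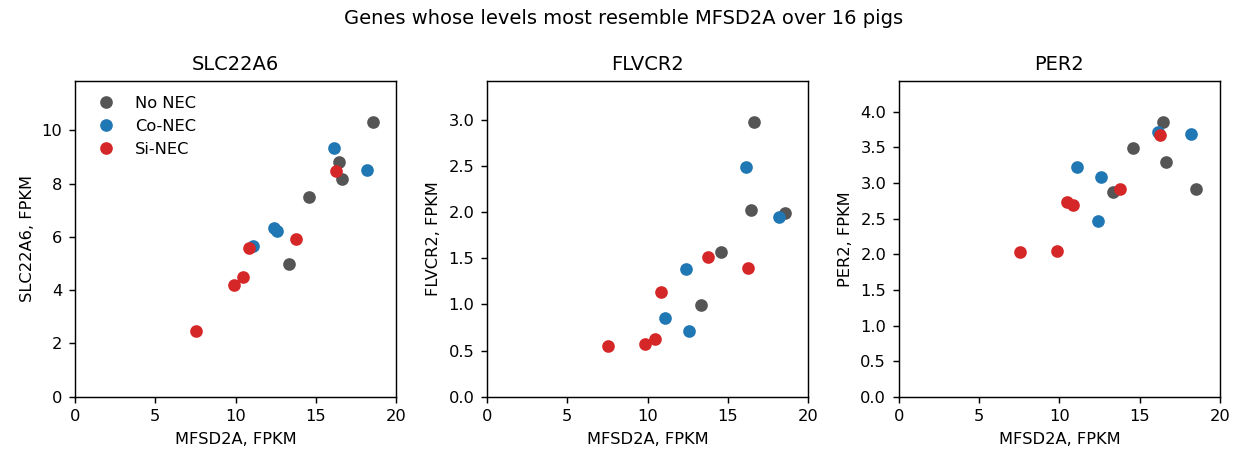
FPKM of SLC22A6, FLVCR2 and PER2 (vertical axes) against FPKM of MFSD2A (horizontal axes), 1 dot a pig, coloured by group. SLC22A6 lies closest to a line with MFSD2A (r = 0.953), and Si-NEC pig 246-15, at 7.54 FPKM of MFSD2A, is lowest in all 3 panels.

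For PECAM1 the most alike were CLEC14A, another endothelial surface protein (r = 0.877) and 1 of the 11 markers above, then CTSC (r = 0.860), a lysosomal protease, and GJC1 (r = 0.851), a connexin. For OCLN they were the thiamine transporter SLC19A3 (r = 0.874), the kinase MKNK2 (r = 0.851) and PLEKHA8 (r = 0.806). For TJP1 they were DENND4A (r = 0.876), ERBIN (r = 0.871), a scaffold at cell junctions, and SOS2 (r = 0.871). LSR (1) was most like PLEKHM1 (r = 0.887), ZNRF3 (r = 0.875), which limits Wnt signalling, and RNF44 (r = 0.836). LSR (2) was most like SKIC2 (r = 0.826), PLEKHA7 (r = 0.808), a protein of adherens junctions, and TFB2M (r = 0.797), of which the second of several entries is meant. No gene was among the most alike of both LSR entries.

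Of the other barrier transporters and receptors, 20 of 28 listed had values and 19 were tested, and 0 passed the adjusted p of 0.2 in any comparison. Which cells of the whole hippocampus these transcripts came from was not determined. For Si-NEC against No NEC, 15 of 19 had a log2 fold change below 0, where 46.2% of all entries did, and the median was -0.19 against 0.02 over all entries tested. At an unadjusted p under 0.05, 3 were lower and 0 higher, against 1.02% and 1.59% of all entries. They were FLVCR2 (-0.72, 95% interval -1.27 to -0.17), the transferrin receptor TFRC (-0.55, -1.03 to -0.08), which takes up iron, and the amino acid transporter SLC38A5 (-0.61, -1.20 to -0.02). TFRC was at 28.0 ± 7.38 FPKM in No NEC (n = 5) and 19.1 ± 5.604 FPKM in Si-NEC (n = 6), and SLC38A5 at 24.1 ± 7.71 and 15.4 ± 4.79 FPKM. In all 3 genes the ranges of the groups overlapped. The listed gene with values that was too low to be tested was AGER, which encodes the receptor RAGE. Its means were 0.0977 FPKM in No NEC, 0.131 FPKM in Co-NEC and 0.208 FPKM in Si-NEC. The study reported AGER as upregulated in Si-NEC by qPCR in a larger set of pigs.

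For Co-NEC against No NEC, 10 of these 19 transporters were below 0, where 48% of all entries were, with a median of -0.01. At an unadjusted limma p under 0.05, 1 was lower and 0 higher, against 1.32% and 2.12% of all entries. This was SLC29A4, a monoamine transporter, at a log2 fold change of -0.42 (95% interval -0.72 to -0.11). It was at 28.3 ± 6.34 FPKM in No NEC (n = 5) and 20.7 ± 1.55 FPKM in Co-NEC (n = 5), and its ranges did not overlap, which held for 0.464% of all entries. For Si-NEC against Co-NEC, 14 of 19 were below 0, where 49.9% of all entries were, with a median of -0.17. At an unadjusted limma p under 0.05, 3 were lower and 0 higher, against 2.4% and 3.25% of all entries. They were the organic anion transporters SLCO1A2 (-0.42, -0.80 to -0.04), SLCO1C1 (-0.41, -0.78 to -0.04), which carries thyroxine, and SLCO2B1 (-0.44, -0.84 to -0.03).

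**Figure D5:**
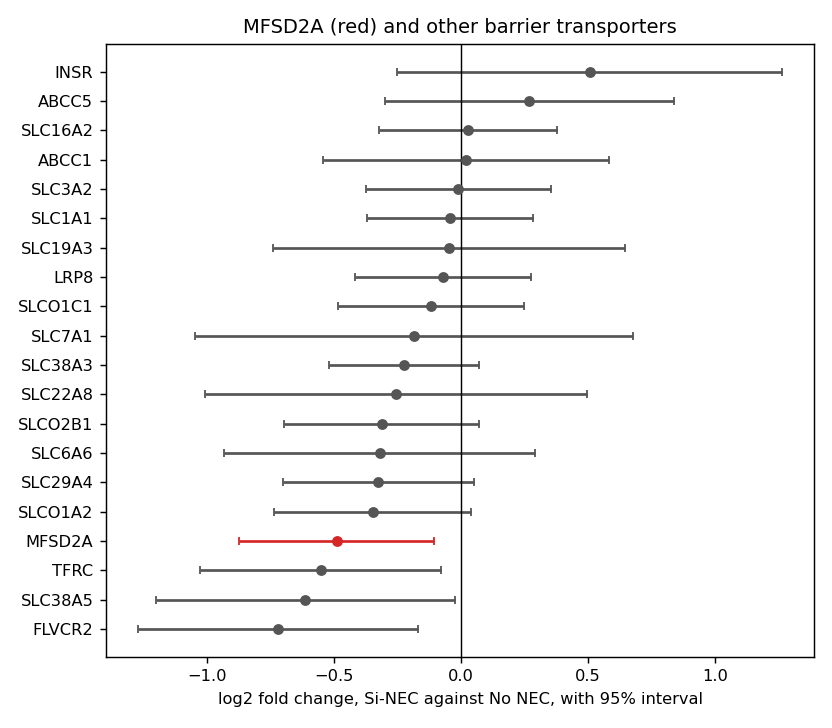
The log2 fold change for Si-NEC against No NEC (horizontal axis) with its 95% interval from limma, for MFSD2A (red) and 19 other barrier transporters and receptors. MFSD2A, at -0.49, is followed by TFRC, SLC38A5 and FLVCR2 at lower values, and 4 of the 19 others lie above 0.

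The other junction genes and their partners, 13 tested of 24 listed, were spread about 0. For Si-NEC against No NEC 5 were higher and 8 lower, with a median of -0.01. In each of the other 2 comparisons 6 were higher and 7 lower, with medians of -0.03 (Co-NEC against No NEC) and -0.01. None had an unadjusted limma p under 0.05 and 0 passed the adjusted p of 0.2.

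Genes of caveolae and vesicle transport, the process that MFSD2A holds down, were 6 tested of 9 listed. They were higher in 5 of 6 for Si-NEC against No NEC (median 0.09), 2 of 6 for Co-NEC against No NEC (median -0.03) and 4 of 6 for Si-NEC against Co-NEC (median 0.08), where 53.8%, 52% and 50.1% of all entries were higher. Si-NEC pig 223-15, which stood apart, had the highest mean log2 level of these vesicle genes, at 3.48. The other Si-NEC pigs were at 3.02 to 3.24 and the No NEC pigs at 2.94 to 3.34. The 1 gene with an unadjusted p under 0.05 was EHD2, which stabilises caveolae, at 0.40 for Si-NEC against Co-NEC (limma adjusted p = 0.865). The Wnt and transcription factor program of the barrier, 19 tested of 27 listed, had medians of -0.00311, 0.04 and -0.04 in the 3 comparisons. Its 1 such gene was the endothelial factor ERG, at -0.42 for Si-NEC against No NEC (limma adjusted p = 1). The vascular basement membrane and its proteases, 11 tested of 18 listed, had medians of 0.08, 0.08 and -0.03. There the protease inhibitor TIMP1 was at 0.68 for Si-NEC against Co-NEC (limma adjusted p = 0.851).

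Markers of the cells around the vessels are given beside the barrier genes, but their transcript levels do not measure the composition of the tissue. The endothelial markers had 8 of 11 higher for Si-NEC against No NEC (median 0.27) and 9 of 11 higher for Si-NEC against Co-NEC (median 0.16), of which 4 had an unadjusted p under 0.05, where 3.25% of all entries did. The 3 with the smallest p were ECSCR (0.82), CD93 (0.45) and ENG (0.44), the limma adjusted p being 0.851, 0.851 and 0.865. For Co-NEC against No NEC 8 of 11 were lower (median -0.07). Pericyte and smooth muscle markers had medians of 0.24, -0.10 and 0.19 over 10 genes, in the order Si-NEC against No NEC, Co-NEC against No NEC and Si-NEC against Co-NEC, with desmin (DES) at 0.43 in the last. MYH11 of that list was listed at 0 in all pigs. Astrocyte markers had medians of 0.10, 0.05 and 0.04 over 6 genes. ALDH1L1 of that list was listed at 0 in all pigs. With detection limits unknown, a 0 in every pig does not show that a transcript is absent.

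Choroid plexus markers, which would bring transporters of their own, had medians of -0.18, 0.02 and 0.15 over 7 genes. They summed to 47.3 to 89.6 FPKM in Si-NEC against 51.3 to 88.0 FPKM in No NEC. ENPP2 had the highest mean of these, at 32.8 FPKM in No NEC, 37.1 FPKM in Co-NEC and 29.6 FPKM in Si-NEC. The mean sums were 66.5, 61.5 and 61.3 FPKM in that order. TTR ranged from 0 to 25.3 FPKM over the pigs, with means of 15.2, 6.86 and 11.4 FPKM in that order. Its log2 fold changes, in the order of the medians, were -0.35, -1.545 and 1.19 (unadjusted limma p of 0.446, 0.0908 and 0.133). The sums thus do not show how far TTR varied. Meningeal and fibroblast markers, a list that holds SLC22A6 (-0.62 for Si-NEC against No NEC), had medians of -0.03, -0.01 and -0.18 over 8 genes, with PDGFRA at -0.33 for Si-NEC against Co-NEC. Their summed level ranged from 34.4 to 99.0 FPKM in No NEC and from 40.0 to 59.4 FPKM in Si-NEC, and MFSD2A had r = 0.174 with their mean log2 level (permutation p = 0.520, adjusted p = 0.800; rho = 0.147, permutation p = 0.586, adjusted p = 0.792), with r = 0.202 without the 2 farthest pigs. Microglia and leukocyte markers had medians of -0.02, -0.16 and 0.12 over 8 genes, with CD14 at -0.43 for Co-NEC against No NEC and TYROBP at 0.58 for Si-NEC against Co-NEC. Erythroid markers had medians of -0.73, -0.41 and -0.18 over 4 genes, and the 5 with values summed to as much as 1302 FPKM in 1 No NEC pig. The part of blood and choroid plexus content in the values of the barrier genes was not tested.

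In the remaining marker lists the medians, in the same order of comparisons, were -0.04, -0.02 and -0.09 for oligodendrocytes (7 genes), with the Si-NEC value of OPALIN, a myelin protein, at -0.67 against No NEC and -0.56 against Co-NEC. For neurons (7 genes) they were -0.09, -0.07 and -0.03, with GAD1 at -0.19 for Si-NEC against No NEC and SYT1 at -0.23 for Si-NEC against Co-NEC. For ependymal cells (4 genes) they were 0.09, 0.17 and -0.05. For platelets, another source of PECAM1, only 2 of 7 listed genes were tested, with medians of 0.01, -0.02 and 0.04. They were ITGB3, at 0.166 to 1.11 FPKM, and GP1BB, at 178 to 361 FPKM. Medians of 2 genes at such unlike levels do not measure platelet content. None of the marker genes passed the adjusted p of 0.2 with limma in any comparison. With Cuffdiff at that cutoff the study called OPALIN and the erythroid genes HBB and ALAS2 lower in Si-NEC than in No NEC. Its qPCR, in a larger set of pigs, found these genes lower in Si-NEC too. By qPCR it also reported CLEC14A, CD14 and TTR as higher in Si-NEC, and TTR as higher in Co-NEC.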

How the data were processed

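RNA of 16 hippocampi was sequenced, and the authors trimmed the reads and deposited FPKM values per gene and pig. The submitters' processing notes name TopHat2 2.1.1, Cufflinks 2.2.1, Cuffdiff and the build Sscrofa10.2. No read counts were used here, so depth, counting error and detection limits are unknown. At most 8.19% of low values of a pair of pigs shared 1 ratio, so whole reads could not be recovered. Groups and sex were taken from the labels, and 0 columns belonged to other samples. The pigs are separate animals.

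Of 24594 entries, 1779 that repeated another entry of the same gene ID in every value were dropped. Symbols came from a table of gene names, which named 11001 gene IDs. For listed genes with several distinct entries, the entry with the highest mean was used. The 13590 entries that averaged 0.5 FPKM or more were tested on log2(FPKM + 0.5), so fold changes of low genes are understated. Each pair of groups was fitted with limma 3.58.1 in R 4.3.3 (eBayes with trend, no covariate). The p-values were adjusted by Benjamini-Hochberg and held against 0.2, the cutoff that the study used with Cuffdiff. Each entry of the 5 genes was also tested by exact permutation (two-sided) of its mean log2 value, and correlations by 100000 permutations. Python 3.11.15, numpy 2.4.6, pandas 2.3.3, scipy 1.17.1 and matplotlib 3.10.9 were used. The fits were tested on simulated data.

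The genes, the lists of barrier and marker genes and the tests were chosen with earlier results of these data known. Besides the 9 genes, the text names from each list up to 3 genes with the smallest p in a comparison, if under 0.05 unadjusted, and the 3 most correlated genes of each entry (with a symbol, a mean of at least 1 FPKM and no pig at 0). Markers at 0, the markers TTR, ENPP2, ITGB3 and GP1BB, and the position of single pigs were named after their values were seen. AGER, HBB and ALAS2 were named because the study reported on them. The alternatives included a pseudocount of 0.1 or 1, a minimum of 1 FPKM or none, median-of-ratios scaling, all groups in 1 fit, covariates for sex and for the suffix of the pig number, no trend, array weights, an adjusted p of 0.05, leaving out pigs 223-15 and 230-15, and leaving out each pig in turn. Levels relative to endothelial markers, the interaction with sex, correlations with marker lists and those of transporters with MFSD2A were added after the data were seen.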

Additional observations from a re-analysis of the deposited data

How the results depend on the processing

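No entry of the 5 genes passed the adjusted p of 0.2 under any of the 68 alternatives for the 3 comparisons. Of 390 alternatives for the log2 fold changes, 370 kept the sign and 20 reversed it. MFSD2A for Si-NEC against No NEC ran from -0.59 (without pig 547-14) to -0.38 (without pig 246-15) as each pig was left out, with unadjusted limma p-values of 0.00322 to 0.0445, and from -0.51 to -0.42 under the other alternatives on whole tissue. PECAM1 for Si-NEC against Co-NEC ran from 0.38 (without pig 246-15) to 0.56 (without pig 547-14), with unadjusted limma p-values of 0.00901 to 0.0579, and its lowest adjusted p under the other alternatives on whole tissue was 0.290, with array weights. OCLN for Co-NEC against No NEC was -0.0799 with array weights and -0.14 without pigs 223-15 and 230-15. Relative to the endothelial markers, TJP1 for Si-NEC against No NEC was -0.0494 and LSR (1) for Si-NEC against Co-NEC was -0.19. As each pig was left out, the sign turned within these ranges: OCLN -0.30 to 0.11 and LSR (1) -0.30 to 0.0514 for Si-NEC against No NEC, OCLN -0.14 to 0.23 and LSR (2) -0.0612 to 0.13 for Co-NEC against No NEC, and OCLN -0.24 to 0.0025, TJP1 -0.0740 to 0.0012 and LSR (1) -0.0768 to 0.17 for Si-NEC against Co-NEC.

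Of 90 alternatives for the correlations between entries, 80 kept the sign. Without pigs 223-15 and 230-15, r was -0.0712 for OCLN with PECAM1, -0.173 for TJP1 with PECAM1, -0.242 for TJP1 with LSR (1) and 0.0840 for TJP1 with LSR (2). With the 2 pigs most extreme in the first gene left out, it was -0.171 for OCLN with TJP1, -0.174 for TJP1 with PECAM1, -0.164 for TJP1 with MFSD2A, -0.479 for TJP1 with LSR (1), 0.0412 for PECAM1 with MFSD2A and 0.0730 for LSR (1) with LSR (2). The cause was not tested. No paired analysis was possible because the labels give no replicate numbers, litters or other pairing between groups. The unknown depth limits what can be said of LSR (2), the lowest of the entries.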
